A study of Mus musculus with 4 samples.

Results

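Genes of the mature oligodendrocyte state were followed in the mouse hypothalamus by single-nucleus RNA sequencing. The 10 genes were given as a list, Apod, Trf, Klk6, Ptgds, Car2, Aspa, Hapln2, Il33, Anln and Ppp1r14a, 10 of the 32285 genes counted, and all 10 passed the filter on low counts in oligodendrocytes. They were read in the 6135 nuclei annotated by the authors as oligodendrocytes, out of 56386 annotated nuclei, and the other main clusters served as background. Each of the 4 libraries held nuclei pooled from 3 adult male mice on the C57/BL6NCr background. Wild-type mice (WT) were compared with mice heterozygous for the R384C mutation of thyroid hormone receptor α1 (TRα1+m), which is carried in every cell from conception and lowers the response of the receptor to its hormone. Both experimental repeats contributed a library of each genotype, so that n = 2 pools per genotype, and no group received a treatment. The p-values below therefore rest on differences between libraries, each a pool, and the spread between mice within a pool was not observed. Where the repeat is in the model, the error rests mostly on a spread shared across genes.

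Oligodendrocytes wrap axons in myelin, and after differentiation they branch into states that share the myelin proteins but differ in genes such as Klk6, Ptgds, Apod and Il33. Thyroid hormone drives the passage from precursor to myelinating cell, and TRα1 bound without hormone holds target genes down. The listed genes therefore sit at the end of a lineage that this receptor helps to time. Apod, Trf and Ptgds encode secreted carrier proteins (a lipid-binding lipocalin, the iron carrier transferrin and lipocalin-type prostaglandin D synthase), and Klk6 a secreted serine protease. Car2, carbonic anhydrase, and Aspa, which splits N-acetylaspartate and so supplies acetate for lipids, encode enzymes. Hapln2 is a link protein of the matrix around nodes of Ranvier, Il33 a nuclear alarmin, Anln (anillin) an actin and septin scaffold, and Ppp1r14a an inhibitor of myosin phosphatase.

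All 10 genes are protein-coding. On GRCm38, Hapln2 lies at chr3:88021750-88027583 (minus strand), Ptgds at chr2:25466709-25470046 (minus strand) and Il33 at chr19:29925114-29960718 (plus strand). The promoters of these genes are shown because these were the members whose genotype call depended on how the repeats were modelled (below). Each is RefSeq sequence on build GRCm38.p6, 250 bases before to 50 after an annotated start, printed 5′ to 3′ on the strand of the gene. Capitals mark any match, on either strand, to AGGTCA (the half-site of nuclear receptors such as TRα1), CTGGCAC (a core bound by the myelin regulator MYRF) or ACAAAG (a SOX core), and no matches overlapped.
Hapln2 promoter, chr3:88027462-88027761, minus strand: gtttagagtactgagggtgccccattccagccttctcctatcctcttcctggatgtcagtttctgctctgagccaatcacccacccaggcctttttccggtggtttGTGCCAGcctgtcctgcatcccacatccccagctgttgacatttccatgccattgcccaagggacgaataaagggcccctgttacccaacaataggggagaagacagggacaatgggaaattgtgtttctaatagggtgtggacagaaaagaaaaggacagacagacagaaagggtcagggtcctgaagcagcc
Ptgds promoter, chr2:25469700-25469999, minus strand: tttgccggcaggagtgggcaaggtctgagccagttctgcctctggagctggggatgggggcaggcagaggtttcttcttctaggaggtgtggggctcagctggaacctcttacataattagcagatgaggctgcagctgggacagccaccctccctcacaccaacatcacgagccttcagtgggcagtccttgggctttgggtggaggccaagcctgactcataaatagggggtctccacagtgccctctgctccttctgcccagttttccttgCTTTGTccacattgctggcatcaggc
Il33 promoter, chr19:29924863-29925162, plus strand: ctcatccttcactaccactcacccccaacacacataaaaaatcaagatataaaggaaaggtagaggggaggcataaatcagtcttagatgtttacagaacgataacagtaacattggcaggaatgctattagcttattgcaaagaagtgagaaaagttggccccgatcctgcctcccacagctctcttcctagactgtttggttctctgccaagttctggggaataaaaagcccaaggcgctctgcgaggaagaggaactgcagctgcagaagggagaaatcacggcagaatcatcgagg
The Hapln2 promoter held the MYRF core, found in 5.01% of 32851 promoters of this length, and the Ptgds promoter the SOX core, found in 18.7%. The Ptgds window lies wholly within the gene range given above. Its SOX core begins at base 275 of 300, after the start used for the window. The Il33 window shown held none of the 3 motifs, nor did that of a second annotated start (chr19:29945540-29945839). The AGGTCA half-site, in 16.3% of all promoters, occurred in 1 of the 10 member promoters in the table, that of Anln. The MYRF core occurred in 1 and the SOX core in 3 of these 10 promoters. Promoter entries were matched for 8 of the 10 genes. These are matches of letters, and binding was not measured.

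Libraries were comparable in size in oligodendrocytes. They held 1396 to 1685 nuclei and 2525236 to 2713480 UMIs (unique molecular identifiers, the counted RNA molecules), with a median of 1493 to 1811.5 UMIs per nucleus. Levels are given below as CPM (UMIs of a gene per 1000000 UMIs) in the summed nuclei of a library. They are compared between libraries and not between genes, since the counts are not scaled by transcript length. The label of the cluster was matched by its markers, with all 5 oligodendrocyte markers, among them Mag, Mobp, Mog and Cldn11, highest there among the 5 larger clusters compared. Between 44 and 64 barcodes of kept nuclei were shared by any pair of libraries, and at most 1 of these was an oligodendrocyte in both.

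Apod, Trf, Klk6, Ptgds and Car2 were higher in repeat 2 in both genotypes, with log2 fold changes from 0.65 to 2.13. The log2 fold change was close to 0 for Aspa and Ppp1r14a in both genotypes. For Anln, repeat 2 was lower in WT (log2 ratio -0.32) and higher in TRα1+m (0.36). In edgeR, 12.4% of all genes differed between repeats and 5.15% of all genes were higher in repeat 2, against 5 of the 10 members called, all higher. The members were chosen with earlier results of these data known, and all genes were not matched to them in level. These shares are therefore no test of the members as a set. Hapln2 (0.44, adjusted p = 0.0501) and Il33 (0.32, adjusted p = 0.185) did not pass. The fit of the repeat contained the genotype and left 1 residual degree of freedom. Its SE and p-values, here and below, thus rest mostly on the spread shared across genes.

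Apod stood at 656.6 CPM in WT and 663.7 in TRα1+m in repeat 1, and at 1828 and 2636 in repeat 2. The repeats did not overlap, whereas the genotypes did, and the log2 fold change between repeats was 1.72 (SE 0.17, adjusted p = 1.7e-13). Trf followed the same order, with 1082 CPM in WT and 943.5 in TRα1+m in repeat 1 against 2614 and 3113 in repeat 2 (log2 fold change 1.48, SE 0.17, adjusted p = 4.33e-11). Both carriers were thus raised in the second experiment irrespective of genotype.

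Klk6 was sparse. It reached 19.7 CPM (51 UMIs) in WT and 7.39 CPM (20 UMIs) in TRα1+m in repeat 1, and 63.4 CPM (172 UMIs) and 53.5 CPM (135 UMIs) in repeat 2. The protease was higher in repeat 2 by a log2 fold change of 2.13 (SE 0.23, adjusted p = 1.86e-11), and within each repeat TRα1+m was below WT. Car2 gave 495 and 375.1 CPM in repeat 1 and 655.2 and 713.2 in repeat 2, for WT and TRα1+m respectively (log2 fold change 0.65, SE 0.16, adjusted p = 0.00244). The genotypes exchanged order between the repeats for Car2.

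Ptgds varied with repeat and, within a repeat, with genotype. WT nuclei contained 3761 CPM in repeat 1 and 8091 in repeat 2, and TRα1+m nuclei 2269 and 5104. The synthase was higher in repeat 2 (log2 fold change 1.12, SE 0.17, adjusted p = 4.35e-07), and within each repeat it was lower in TRα1+m, by a log2 ratio of -0.73 in repeat 1 and -0.66 in repeat 2. TRα1+m of repeat 2 nevertheless lay above WT of repeat 1, so that the genotypes overlapped.

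**Figure D1:**
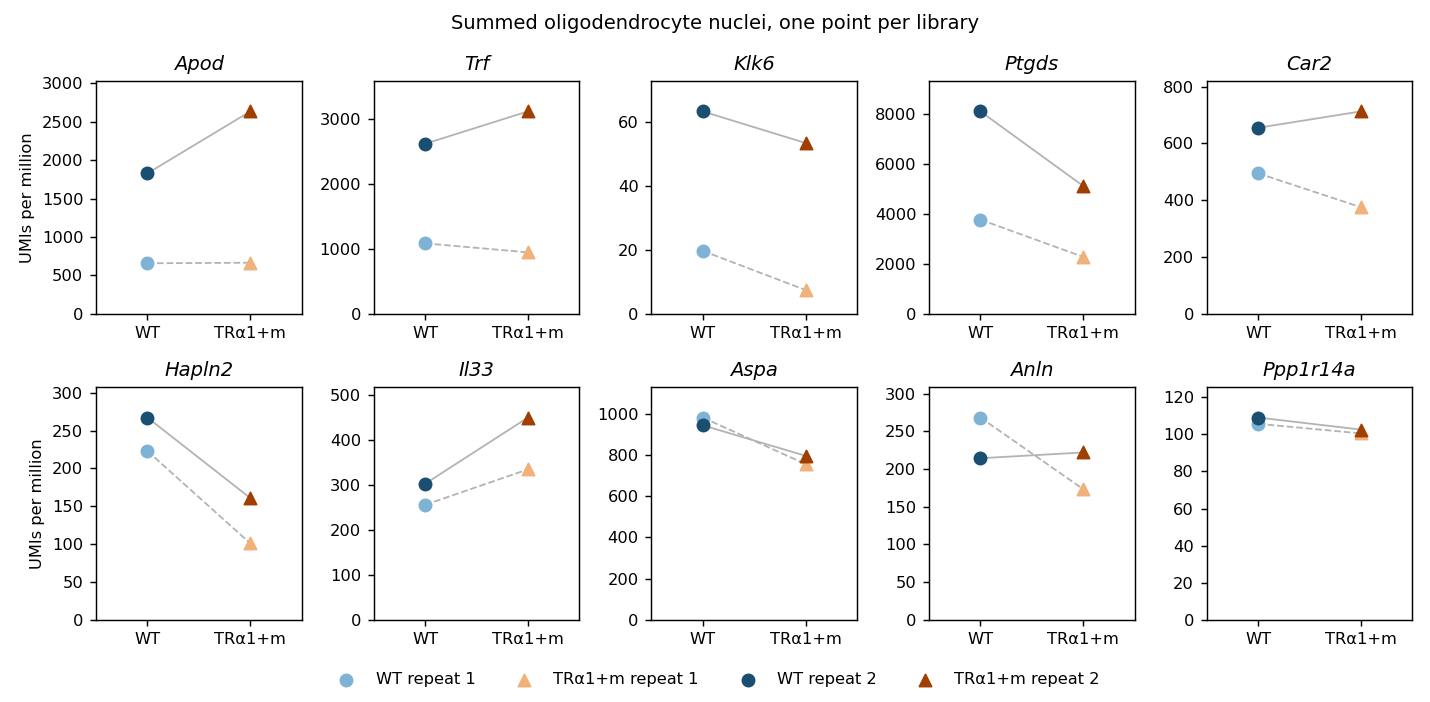
Levels of the 10 genes in summed oligodendrocyte nuclei (vertical axis, CPM, each panel on its own scale from 0) in WT (circles) and TRα1+m (triangles), with 1 point per library and lines joining the libraries of a repeat (dashed, repeat 1). Apod, Trf and Klk6 separate by repeat, whereas Hapln2 and Aspa lie lower and Il33 higher in both TRα1+m libraries.

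The remaining members varied less between repeats. Hapln2 was measured at 223 and 267.2 CPM in the WT libraries of repeats 1 and 2 and at 100.9 and 160.8 CPM in the TRα1+m libraries, which gives 245.1 ± 31.2 against 130.8 ± 42.3 (SD, n = 2). Both mutant pools lay below both wild-type pools. Il33 went the other way, at 256.2 and 302.9 CPM in WT and 335.2 and 450.7 CPM in TRα1+m (279.6 ± 33.1 against 392.9 ± 81.6, SD, n = 2), again without overlap.

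Aspa separated by genotype with a small spread. It gave 981.5 and 943.8 CPM in WT and 755.4 and 795.6 CPM in TRα1+m (962.6 ± 26.6 against 775.5 ± 28.4, SD, n = 2). Ppp1r14a, at 105.7 and 109.1 CPM in WT and 100.5 and 102.6 in TRα1+m, also did not overlap, yet the log2 fold change was -0.01. Anln, at 268.5 and 214.5 CPM in WT and 173.3 and 222.2 in TRα1+m, overlapped. Its count is uncertain where it overlaps Gm48646, annotated on the same strand, for which 7 to 19 UMIs per library were counted. In all, the CPM of the genotypes did not overlap for 4 of the 10 members (3 lower and 1 higher in TRα1+m). Over all genes tested this held for 32.3% (20.6% lower and 11.7% higher), near the share among the members. CPM lacks the library scaling factors (TMM) of the tests, which were 1.00 and 1.04 in WT and 0.989 and 0.967 in TRα1+m. Overlap was not counted on scaled values, and a gap as small as that of Ppp1r14a can depend on this scaling.

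In the test of genotype without the repeats in the model, no member was called, against 0.103% of all genes (13 of 12630, edgeR). DESeq2 called no member either, and 74 genes. Unadjusted p-values under 0.05 were found for 2 members, Hapln2 and Il33, against 5.32% of all genes. Hapln2 was lower in TRα1+m by a log2 fold change of -0.83 (SE 0.26, adjusted p = 0.633) and Il33 higher by 0.56 (SE 0.21, adjusted p = 0.852). Of the 10 log2 fold changes, 7 were negative, with a median of -0.12 over the members and 0.01 over all genes tested. The spread that this test set against the genotype effect contained the repeat difference described above, with SE of 0.77 for Apod and 0.95 for Klk6.

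With the repeat as a block, which sets each TRα1+m pool against the WT pool of the same experiment, 3 of the 10 members were called, against 4.35% of all genes (550 of 12630). As for the repeat, these shares are no test of the set, since the members were chosen with earlier results of these data known. Hapln2 was lower (log2 fold change -0.86, SE 0.16, adjusted p = 3.11e-05), Ptgds was lower (-0.63, SE 0.17, adjusted p = 0.0142) and Il33 was higher (0.55, SE 0.16, adjusted p = 0.0225). DESeq2 with the block called Hapln2 (adjusted p = 0.017) and Ptgds (adjusted p = 0.0131) but not Il33 (adjusted p = 0.27), against 1.17% of all genes. The block leaves 1 residual degree of freedom, so the error rests mostly on the spread shared across genes. Apod (0.34, adjusted p = 0.354), Klk6 (-0.49, adjusted p = 0.29) and Aspa (-0.25, adjusted p = 0.565) did not pass. Without the block, leaving out the TRα1+m library of repeat 2 gave a log2 fold change of -1.23 for Hapln2. That fit sets TRα1+m of repeat 1 against WT of both repeats. Hapln2 was higher in repeat 2 (log2 fold change 0.44, adjusted p = 0.0501 in edgeR), so genotype and repeat are partly mixed there.

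**Figure D2:**
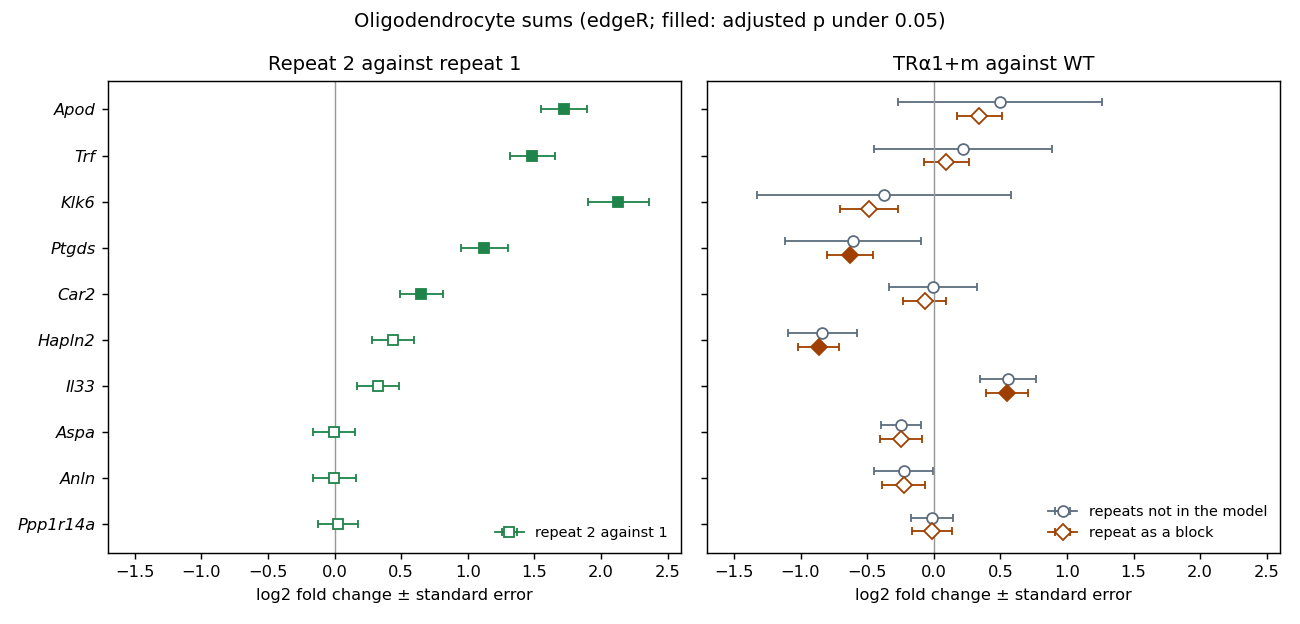
Log2 fold change with standard error (horizontal axis) of each gene in oligodendrocyte sums, for repeat 2 against repeat 1 (left) and TRα1+m against WT (right, circles without and diamonds with the repeat as a block), filled where the adjusted p was under 0.05 in edgeR. In all, 5 members are filled for the repeat, none for the genotype without the block, and Ptgds, Hapln2 and Il33 with it.

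Other measures moved along with these groups. The summed level of the 5 oligodendrocyte markers was 7393 to 8314 CPM in the libraries of repeat 1 and 17841 to 21360 in those of repeat 2, with no marker at 0. Malat1, a nuclear long non-coding RNA, took 5.86% and 3.00% of the UMIs in WT and 9.51% and 7.06% in TRα1+m, lower in repeat 2 in both genotypes and higher in TRα1+m in both repeats. Mitochondrial transcripts took 2.31% and 2.44% in WT and 1.97% and 1.79% in TRα1+m. Their part in the differences of the members was not tested. Markers of other cells were also present in the oligodendrocyte sums, none of them at 0. Astrocyte markers (5 genes) summed to 809.4 to 1095 CPM in repeat 1 and 595.2 to 649 in repeat 2. Microglial markers (5 genes) summed to 108.4 to 144.9 CPM in repeat 1 and 77.8 to 79.2 in repeat 2. Those of vascular and leptomeningeal cells (6 genes) gave 20.3 to 23.9 and 7.13 to 8.48 CPM. Markers of oligodendrocyte precursors (5 genes) gave 44.4 to 49.9 and 32.5 to 40.9 CPM. These lists were thus lower in repeat 2 in both genotypes, without overlap between repeats. The tanycyte list was also lower in repeat 2 in both genotypes but overlapped between repeats. The neuronal, endothelial and mural lists overlapped as well, and were higher in repeat 2 in WT and lower in TRα1+m. The lists that separated by genotype were the tanycyte markers (3 genes) with 439.3 to 517.7 CPM in WT and 543.7 to 758.7 in TRα1+m, and the neuronal markers (6 genes) with 907.4 to 942.7 in WT and 645.1 to 884.7 in TRα1+m. Their part in the differences was not tested either.

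The share of nuclei with at least 1 UMI showed in how many cells a gene was found. Every nucleus was thinned to 900 UMIs for this purpose, since deeper nuclei detect more genes, and no nucleus fell below that number. Of the 10 members, 4 did not overlap between genotypes in this share, Hapln2, Aspa and Anln lower and Il33 higher in TRα1+m, each with p = 0.333 in an exact two-sided permutation test, the smallest value that 2 against 2 libraries allow. No member could therefore reach significance in this measure. Over all genes tested, 32.7% did not overlap in it (20.5% lower and 12.2% higher), near the share among the members. In whole nuclei 3 members did not overlap, Hapln2, Aspa and Anln, all lower, against 26.6% of all genes (19.6% lower and 6.99% higher).

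Hapln2 was detected in 17.9% (95% exact binomial interval 16.1 to 19.9) and 21.3% (19.2 to 23.5) of WT nuclei, and in 8.37% (7.09 to 9.79) and 11.7% (10.0 to 13.5) of TRα1+m nuclei. These intervals cover counting error alone. In whole nuclei the shares were 27.3% and 36.0% against 14.2% and 21.2%, with 1.29 and 1.44 UMIs per positive nucleus in WT and 1.14 and 1.35 in TRα1+m. Fewer nuclei were thus positive in both mutant pools, also in the thinned nuclei. In Neurons_1, the main neuronal cluster, 0.103% to 0.503% of thinned nuclei had a Hapln2 UMI.

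Il33 was found in 18.6% and 21.8% of thinned WT nuclei and in 23.3% and 30.7% of TRα1+m nuclei. In whole nuclei the genotypes overlapped for this gene, at 27.7% and 38.0% against 35.5% and 47.2%. Aspa reached 56.4% and 53.9% in WT and 47.0% and 48.0% in TRα1+m, and Anln 18.2% and 15.8% against 12.5% and 15.6%, where the libraries of repeat 2 nearly met.

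Ptgds was detected in most nuclei of every library, 80.9% and 85.0% in WT and 72.6% and 82.9% in TRα1+m, but the molecules per positive nucleus were 4.30 and 8.94 in WT and 2.80 and 5.78 in TRα1+m. Within each repeat, positive TRα1+m nuclei thus carried fewer molecules than those of WT. The shares of Apod and Trf rose with the repeat. Apod was found in 40.8% of WT and 43.8% of TRα1+m nuclei in repeat 1, and in 74.6% and 87.8% in repeat 2. Its molecules per positive nucleus rose as well, from 1.38 to 2.24 in WT and from 1.37 to 2.74 in TRα1+m. Trf was found in 60.4% and 54.7% in repeat 1, and in 86.2% and 89.0% in repeat 2. On average 3.39 members were found per thinned nucleus in WT and 2.97 in TRα1+m in repeat 1, and 4.14 and 4.23 in repeat 2.

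Because the members mark different states of mature oligodendrocytes, their co-detection in single nuclei was compared with what independent occurrence would give. For each pair and library, the number of thinned nuclei with both genes was divided by the number expected from the share of each gene. Of 45 pairs, 36 had at least 5 nuclei expected in every library, and their median ratio was 0.997. The ratio lay above 1 in all 4 libraries for 6 of these pairs and below 1 in all 4 for 5. Nuclei are not replicates, so the values are given per library and without a test.

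The pairs farthest apart were Il33 with Hapln2, at ratios of 0.750 and 0.878 in WT and 0.547 and 0.809 in TRα1+m (mean 0.746). Ptgds was likewise found less often with Anln (0.855, 0.834, 0.784 and 0.764 in the same order of libraries, mean 0.809) and with Hapln2 (0.887, 0.927, 0.791 and 0.804, mean 0.852). At the other end, Hapln2 occurred with Anln at 1.10 and 0.983 in WT and 1.47 and 1.51 in TRα1+m (mean 1.27). Its mean ratio was 1.18 with Ppp1r14a and 1.10 with Apod, both above 1 in every library, although in whole nuclei the ratio with Ppp1r14a was 0.849 in TRα1+m of repeat 2. Ptgds and Il33, by contrast, occurred together at a mean ratio of 1.08. Il33 with Anln gave a mean of 0.874.

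**Figure D3:**
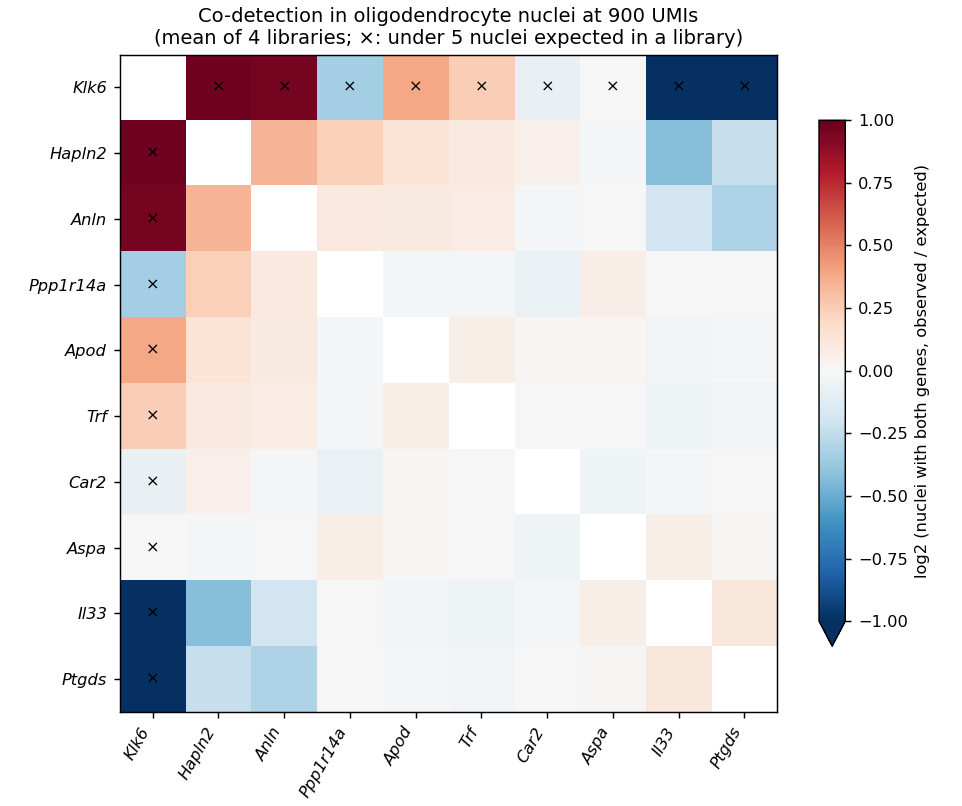
Co-detection of each pair of genes in thinned oligodendrocyte nuclei, coloured by the log2 of the mean observed over expected number of nuclei (red, more often together than independent genes, blue, less often), with crosses where fewer than 5 nuclei were expected in a library. Ptgds and Il33 are blue with Klk6, Hapln2 and Anln, and Klk6 is red with Hapln2 and Anln.

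Pairs with Klk6 had too few nuclei for the rule above and were looked at after their values were seen. In thinned nuclei, 25 and 49 WT and 6 and 43 TRα1+m nuclei contained Klk6. Ptgds was found in 44.0% and 18.4% of these in WT and in 16.7% and 23.3% in TRα1+m, against 72.8% to 87.5% of Klk6-negative nuclei of the same libraries. Il33 was found in 0% to 8% of Klk6-positive nuclei against 18.8% to 31.5% of Klk6-negative ones. Both were lower in Klk6-positive nuclei in all 4 libraries, as shown in the plot by Klk6 detection.

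Hapln2, Anln, Apod and Trf were found more often in Klk6-positive nuclei in all 4 libraries. Averaged over libraries, Hapln2 occurred in 27.1% of Klk6-positive and 14.5% of Klk6-negative nuclei, and Anln in 29.1% and 15.2%. In TRα1+m of repeat 1 these shares rest on 6 nuclei. In whole nuclei, 43 and 97 WT and 15 and 82 TRα1+m nuclei contained Klk6. The mean ratio there was 0.506 for Klk6 with Ptgds, 0.444 with Il33, 2.14 with Hapln2 and 2.45 with Anln. In TRα1+m of repeat 1, 2.13 nuclei were expected with Hapln2 and 3.14 with Anln, still under the rule of 5. Klk6 was found in at most 0.394% of thinned nuclei of OPCs, astrocytes, microglia and macrophages or Neurons_1.

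**Figure D4:**
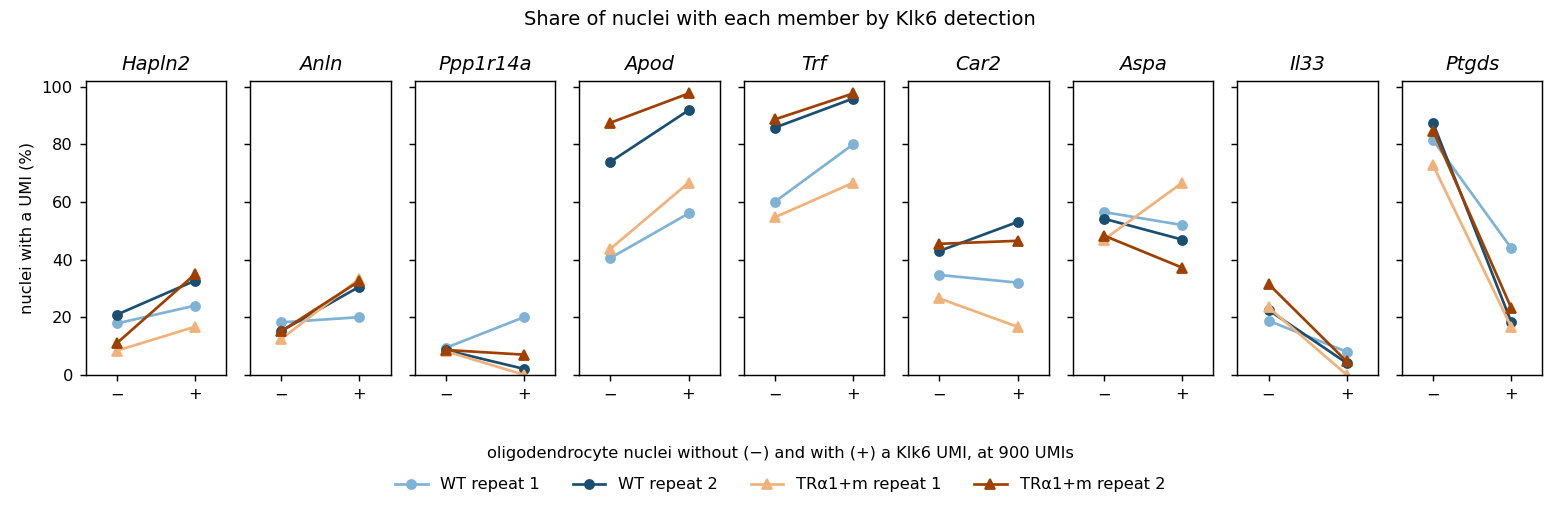
Share of thinned oligodendrocyte nuclei with a UMI of each other member (vertical axis, percent) in nuclei without (−) and with (+) a Klk6 UMI, with 1 line per library. Ptgds and Il33 fall in all 4 libraries, while Hapln2, Anln, Apod and Trf rise in all 4.

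The members were next read in OPCs, astrocytes, microglia and macrophages, and Neurons_1. Neurons_2 was set aside, since 852 of its 864 nuclei came from TRα1+m of repeat 2, and the small cluster of non-neuronal cells is described last. Clusters were built from these same genes, so this is a description without a test. Free RNA gives UMIs in nuclei that do not express a gene, and 12 further genes of the oligodendrocyte lineage were read as a gauge of this background. Levels are given as a percentage of the oligodendrocyte level of the same library. That level was itself called higher in repeat 2 for 7 of these 12 genes (edgeR), which lowers their percentages in repeat 2. In Neurons_1 (median 3797 to 5227 UMIs per nucleus), these reference genes stood at a median of 2.77% and 1.49% of their oligodendrocyte level in WT and 3.19% and 0.965% in TRα1+m, higher in repeat 1. In this cluster 9 of the 10 members never exceeded the highest reference gene. The exception was Ppp1r14a, at 6.62% to 10.96% and above all reference genes in 3 of 4 libraries. The highest reference gene stood at 5.87% to 12.2%, well above the median, so this bar could miss low expression. Car2 (4.84% to 6.47%) and Il33 (2.66% to 4.21%) also lay above the reference median in all 4 libraries, whereas Trf and Aspa lay below it in all 4. Within Neurons_1 the members were uneven over the sub-clusters of the authors. With the libraries together, Aspa was at 230.2 CPM in sub-cluster 11 and 246.5 in CART Neurons_2, against 6.26 in GABA neurons. Hapln2 was at 36.5, 71.2 and 2.70 CPM in the same order. Sub-cluster 11 held 81 and 44 nuclei in the WT libraries and 133 and 4 in TRα1+m. CART Neurons_2 held only 4 and 19 nuclei in WT and 2 and 3 in TRα1+m. The origin of these UMIs was not tested.

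Apod and Ptgds stood out in the cluster of microglia and macrophages. Apod was at 85.2% and 36.8% of its oligodendrocyte level in WT and at 70.8% and 58.7% in TRα1+m, and Ptgds at 47.9%, 34.9%, 91.5% and 66.7%. Both lay above all 12 reference genes (at most 32.6%) in all 4 libraries. Klk6 did so in 1 library, on 7 UMIs in this cluster in all, and Ppp1r14a in 1 library, at 29.6%. This cluster also contained nuclei with markers of vascular and leptomeningeal cells (Dcn, Col1a1, Col1a2, Lum, Slc6a13, Igf2), which summed to 323.6 to 885.0 CPM. Nuclei with at least 2 UMIs of these markers were 7.69% to 10.7% of the cluster and contained 63.0% to 82.9% of its Apod UMIs and 67.3% to 91.2% of its Ptgds UMIs. Without them, Apod fell to 7.77% to 25.0% and Ptgds to 4.50% to 33.5% of the oligodendrocyte level. Apod still lay above the highest reference gene in TRα1+m of repeat 2 (25.0% against 24.1%). Ptgds did so in TRα1+m of repeat 1 (33.5% against 32.6%). In the other libraries each lay below it. The reference genes were read with all nuclei of the cluster. In oligodendrocytes only 1 or 2 nuclei per library carried the vascular and leptomeningeal markers at this level. These nuclei held at most 0.588% of the Apod and 0.482% of the Ptgds UMIs. In Neurons_1 they were 0.146% to 0.454% of nuclei and held 0.325% to 36.3% of the Apod UMIs.

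In astrocytes, Il33 was at 17.4% to 20.8% of the oligodendrocyte level, above all reference genes in 3 of 4 libraries, and the value differed little between repeats. Car2 was at 16.2% to 18.6%, above all reference genes in 1 library, and Ppp1r14a at 12.6% to 29.7%, above them in 2. Apod and Ptgds in astrocytes, by comparison, followed the repeat, with 9.76% to 14.3% in repeat 1 and 1.52% to 2.31% in repeat 2. The reference genes did so as well (medians of 6.53% and 7.27% in repeat 1 and of 3.20% and 2.40% in repeat 2). The oligodendrocyte level of Apod and Ptgds was higher in repeat 2, which lowers these percentages. In CPM, Apod in astrocytes went from 66.1 to 31.3 in WT and from 89.0 to 40.1 in TRα1+m. Ptgds went from 366.9 to 157.7 and from 325.2 to 118.1. Trf stayed at 50.8 to 55.3 CPM in astrocytes. In oligodendrocyte precursors (OPCs), Hapln2, Trf, Aspa and Anln were at 1.72% to 6.83%. Ppp1r14a, at 8.90% to 23.4%, was the only member above the median of the reference genes in all 4 libraries. No member exceeded the highest reference gene. That gene stood at 84.5% or more in OPCs, so this comparison could not separate expression from background there.

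The cluster that the authors named non-neuronal cells held 34 to 80 nuclei per library, 207 in all. The paper reports raised doublet scores for it and a similar cluster that another study labelled doublets. It considers such doublets unlikely with nuclei, yet left the cluster out of further work as a precaution. In this cluster the members stood much nearer to their oligodendrocyte level. The median over libraries was 43.6% for Klk6, 49.9% for Hapln2 and between 52.1% and 65.3% for the other members, the highest being that of Il33. Ptgds, for example, was at 46.9% and 41.2% in WT and at 57.4% and 59.2% in TRα1+m. Anln varied from 19.8% to 87.2% and Klk6 from 0% to 110.7%, the latter on 0 to 4 UMIs per library. Klk6 was found in at most 1 thinned nucleus per library, 2.78% and 2.94% in the libraries of repeat 2. These sums also carried markers of both oligodendrocytes (4293 to 11420 CPM) and astrocytes (4530 to 6224 CPM). Their part in these levels was not tested.

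**Figure D5:**
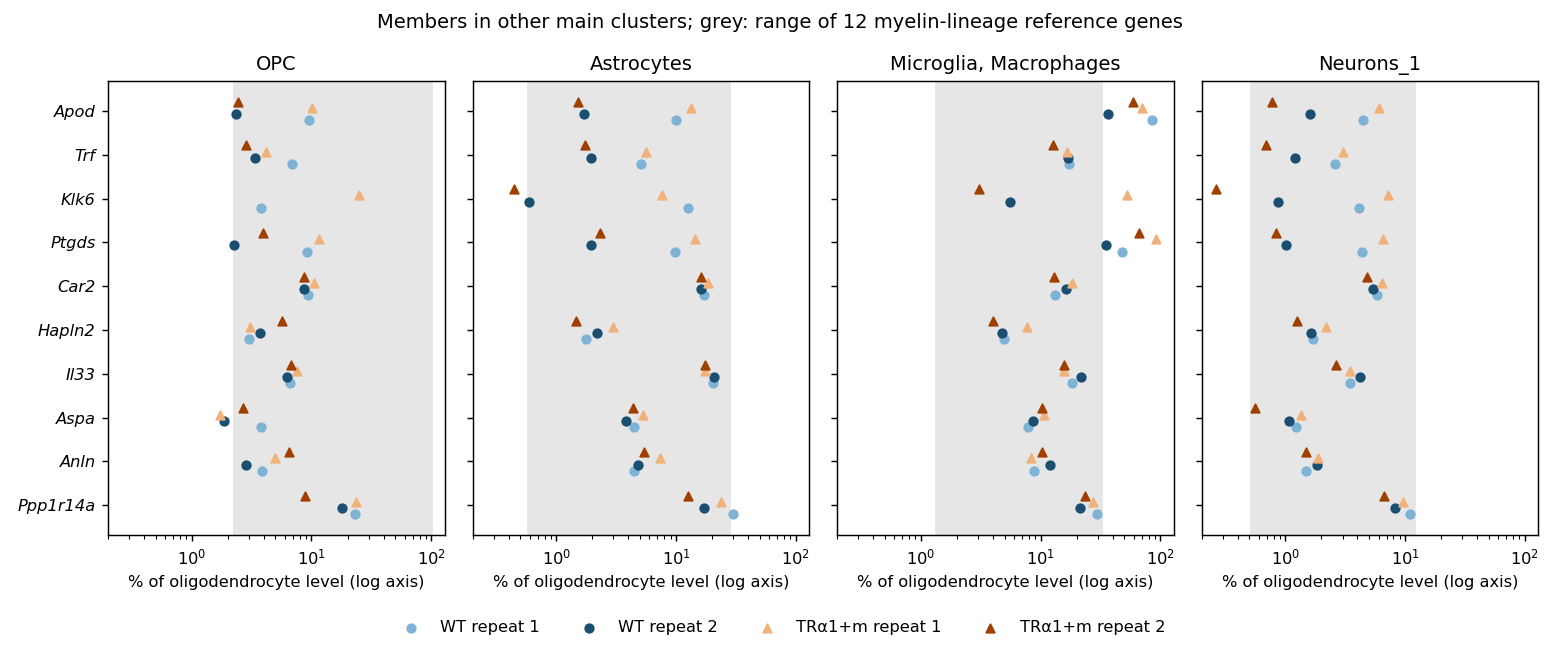
Level of each gene in 4 other main clusters as a percentage of its level in oligodendrocytes of the same library (horizontal log axis), with 1 point per library, zeros not drawn, and the range of 12 reference genes over the libraries in grey. All 4 points of Apod and of Ptgds lie to the right of the grey band in the cluster of microglia and macrophages.

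No member was called in Neurons_1, astrocytes, OPCs or microglia and macrophages, where edgeR called 0% of all genes in each, nor with the block, where it called 0.01%, 1.28%, 0.569% and 0.335% of all genes. Of the members, 10, 9, 9 and 8 passed the filter on low counts. With the block, an unadjusted p-value under 0.05 in edgeR was found for 4, 4, 3 and 1 members in the same order of clusters. Of all genes, 7.94%, 9.97%, 7.65% and 6.07% had such a p-value. Without the block it was found for 1 member in 1 cluster, Hapln2 in Neurons_1 (log2 fold change -1.02, SE 0.24, adjusted p = 1.00). Hapln2 there was at 1.26% to 2.20% of its oligodendrocyte level, within the range of the reference genes. Within this cluster Hapln2 was highest in CART Neurons_2 and sub-cluster 11, both small and unevenly spread over libraries (above). Its log2 fold change was also negative in astrocytes (-0.84, SE 0.42) and OPCs (-0.51, SE 0.62), on 76 and 39 UMIs in all.

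Whether the genotype effect in oligodendrocytes differed from that in another cluster was tested directly. No member was called in any of the 4 comparisons, against 0.182% of all genes for Neurons_1, 0.327% for astrocytes, 0.403% for OPCs and 0.16% for microglia and macrophages. Ptgds came nearest, with a genotype effect lower by 0.87 (log2, SE 0.28) in oligodendrocytes than in microglia and macrophages (edgeR, unadjusted p = 0.00686, adjusted p = 0.577). In that cluster, 67.3% to 91.2% of the Ptgds UMIs lay in nuclei with markers of vascular and leptomeningeal cells. Those nuclei were kept in this test. With no member called, the genotype effects on these genes were not shown to be particular to oligodendrocytes.

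Other genes of the maturation programme were taken from lists, also chosen with earlier results of these data known. Of 40 further genes of mature oligodendrocytes, all tested, 26 differed between repeats, against 12.4% of all genes. Of these, against 5.15% of all genes, 24 were higher in repeat 2, with log2 fold changes from 0.44 to 2.39. Among them were the myelin genes Mal (2.39), Mag, Mog, Opalin, Cnp, Cldn11, Tspan2 and Pllp, the connexin Gjb1, the lipid enzymes Fa2h and Gal3st1, and Tmem125 (2.26), Evi2a (2.15), Gsn, Hopx, Tmem88b, Aatk, Efnb3, Enpp2, Arsg, Ndrg1 and Cryab. Anxa5 (-0.70) and S100b (-0.56) were lower. Of 13 tested genes of newly formed oligodendrocytes (15 listed), 2 differed, Enpp6 higher (0.75) and Tcf7l2 lower (-0.71). The median log2 fold change between repeats was 0.54 for the 10 members, 0.55 for the 40 genes, 0.03 for the 13 and 0.01 for all genes tested.

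For genotype, none of the 40 mature and none of the 13 newly formed genes passed the test without the block (edgeR), against 0.103% of all genes. DESeq2 called 1 and 0, against 0.586% of all genes. The largest changes among the mature genes were those of Arsg, a lysosomal sulfatase (log2 fold change -1.61, SE 0.31, adjusted p = 0.233), Gsn, the actin-severing gelsolin (1.35, SE 0.74), the myelin protein Pllp (-0.94, SE 0.89) and Tmem88b (-0.87, SE 0.41). Among newly formed genes, Tns3 (0.76, SE 0.18), Gpr17 (-0.70, SE 0.39), Enpp6 (0.56, SE 0.35) and 9630013A20Rik (-0.45, SE 0.54) moved farthest.

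With the block, against 4.35% of all genes, 6 of the 40 mature genes were called. Of these 3 were higher in TRα1+m, among them Gsn (1.22) and Gal3st1 (0.75), and 3 were lower, Arsg (-1.64), Pllp (-0.997) and Tmem88b (-0.87). Gal3st1 makes the myelin lipid sulfatide. Of the 13 newly formed genes 2 were called, against the same share of all genes. These were Tns3 (0.76) and Enpp6 (0.53), both higher. The median log2 fold change with the block was -0.15 for the members, 0.11 for the 40 genes and -0.09 for the 13. The called genes of the mature state thus went in both directions in TRα1+m, among the members as among the further genes.

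The 5 genes whose level across the 20 sums (5 main clusters in 4 libraries) was most like the mean of the 10 members, by Pearson correlation of log2(CPM + 1), were Erbin (r = 0.987), Opalin (0.987), Sept4 (0.981), Rnf13 (0.980) and Kctd13 (0.974). Among the members, Aspa (0.979), Trf (0.977) and Anln (0.975) were closest to the mean of the other members, and Klk6 (0.878) and Apod (0.889) farthest. The sums of a library share their pool and depth, and the values are a description.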

How the data were processed

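Nuclei of 4 hypothalamus libraries were sequenced on the 10x platform. Alignment and UMI counting were done by the authors in cellranger 5.0.1 against mm10 (GRCm38), with intronic reads kept. The deposited values are raw counts per gene and nucleus, with an annotation by the authors of nuclei that passed at least 900 counts and 700 features, at most 5% mitochondrial counts and a doublet filter. Their clusters were used as annotated, and doublets were not called again. Members and lists were chosen with earlier results of these data known. All members, the 5 genes most alike, list genes past the threshold (some are not reported here), the largest 4 changes per list and the 3 highest and lowest pairs are named.

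Counts were summed per library and main cluster and tested in edgeR 4.0.16 (R 4.3.3; filterByExpr, TMM, robust quasi-likelihood F-test, two-sided) with Benjamini-Hochberg adjustment over all genes at 0.05. The SE given with edgeR was derived from the test, as the absolute log2 fold change divided by the square root of F. DESeq2 1.42.0, RLE factors, no filter, equal nuclei, thinning and each library left out were alternatives. The study pairs a library of each genotype in each repeat, and repeat differences correlated between genotypes (r = 0.541 over genes), so the repeat was also a block. The fits were tested on simulated data. Python 3.11.15 and scipy 1.17.1 gave shares and exact tests. Of 68190 barcodes, those without annotation were not used.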

Additional observations from a re-analysis of the deposited data

How the results depend on the processing

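In oligodendrocytes no member was called for genotype with RLE factors, DESeq2, no filter, equal numbers of nuclei, thinned nuclei or the bias-adjusted fit. With the replicate block 3 were called among 550 genes. The bias-adjusted fit with the block (3 members, 517 genes) and DESeq2 with the block (2 members, 148 genes) were added after the data were seen. Genes called numbered 13 in the main test, 74 with DESeq2, 120 without the filter and 0 (without WT repeat 2) to 196 (without TRα1+m repeat 1) when a library was left out, with 0 to 1 members. A genotype left with a single library was assumed to vary like the other. The block, which pairs the libraries of a repeat, changed no other call of a member. For the repeat effect 5 members were called with RLE factors, DESeq2, no filter and thinned nuclei, and DESeq2 called 330 genes against 1568.

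Leaving out a library turned the direction of several members. The log2 fold change for genotype ranged from -0.85 to 1.38 for Apod, -2.43 to 0.67 for Klk6, -1.33 to 0.021 for Ptgds, -0.57 to 0.39 for Car2, -0.92 to 0.96 for Trf and -0.052 to 0.014 for Ppp1r14a, and in OPCs from -1.39 to 0.081 for Hapln2. In oligodendrocytes Hapln2 (-1.23 without TRα1+m repeat 2 to -0.53 without TRα1+m repeat 1), Aspa and Anln stayed negative and Il33 (0.31 without TRα1+m repeat 2 to 0.77 without TRα1+m repeat 1) positive in all 4 omissions. The difference in share of whole nuclei with a UMI (TRα1+m minus WT) ranged from -12.4 to 22.1 percentage points for Apod, -3.89 to 1.02 for Klk6, -16.8 to 7.66 for Car2, -15.5 to 9.77 for Trf and -2.26 to 0.71 for Ppp1r14a. Repeat effects near 0 changed sign, to -0.075 for Ppp1r14a in thinned nuclei, to 0.011 and 0.046 for Aspa without the filter and in thinned nuclei, and to 0.00024, 0.013 and 0.061 for Anln with DESeq2, without the filter and in thinned nuclei.

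In the 4 other clusters tested no member was called in any alternative. Genes called in Neurons_1, astrocytes, OPCs and microglia with macrophages were 0 in each main test, with 193, 255, 185 and 226 at an unadjusted p under 0.05. They were 2, 190, 64 and 35 with the block, 1, 1, 1 and 0 with DESeq2, and 0, 1, 11 and 9 without the filter. With a library left out they were 1 to 8 in OPCs and 0 to 72 in microglia with macrophages. The differences between clusters called 34, 48, 53 and 22 genes, and 6, 7, 3 and 1 without a library term. The fold of the oligodendrocyte level over the highest of these 4 clusters moved with TMM-scaled CPM from 3.93 to 5.01 for Ppp1r14a, 19.7 to 25.1 for Hapln2, 6.55 to 8.49 for Trf, 10.9 to 13.8 for Aspa and 10.2 to 13.0 for Anln, and with means per nucleus from 1.90 to 2.86 for Ptgds and to 14.5 for Aspa. Ptgds with Anln had a ratio of 0.880 in whole nuclei. The causes were not tested. With 2 pools per genotype, the main test resolves only differences that exceed the spread between repeats.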
